A study of Mus musculus with 6 samples.

Results

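Intraflagellar transport (IFT) and the BBSome form the transport machinery of the cilium, and 39 of its genes were followed here among the 24444 gene symbols of the deposited table. The 39 were the rows whose symbol was on a list of 6 IFT-A genes, 9 genes of the IFT-B core, 6 of the IFT-B periphery, 6 ciliary motor genes, 7 BBSome subunits and 5 genes of BBSome assembly and recruitment. All 39 were in the table, and all 39 passed the filter on low values. The libraries were made from poly(A) RNA of E12.5 mouse telencephalon of the C57BL/6J strain, the forebrain vesicle that gives rise to the cerebral cortex and basal ganglia. Of the 6 libraries, 3 carried the genotype label Arl13b-/-, and the other 3 were wild-type. The labels name no allele behind this genotype, and do not say whether each library was a separate embryo. The p-values below thus speak to the scatter of these 6 libraries alone, and that scatter may be technical. Values are variance-stabilised log2 levels and, after undoing that transformation, normalized counts.

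In a primary cilium, IFT-B complexes carried by kinesin-2 move cargo towards the tip, and IFT-A with cytoplasmic dynein-2 is needed for the return. The BBSome is a coat-like complex that rides on these trains and removes membrane proteins from the cilium. In the embryonic forebrain, radial glia extend a primary cilium into the ventricle and young neurons also bear one, and Hedgehog signalling depends on IFT there. Genes of ciliary transport in many animals are targets of RFX transcription factors, which bind a paired element known as the X-box.

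Promoter stretches that hold an X-box form are shown because the X-box is the element through which RFX factors are known to act on ciliary genes. RefSeq promoter windows of build GRCm38.p6, from 250 bases before to 50 after the gene start, were found for 35 of the 39 members. The paired form, GTTNCC and then GGNAAC after a spacer of 2 bases, was held by Ttc26 and Bbs7, which is 5.71% of the 35 members, against 0.529% of all 27025 genes with a window. The single form GTTGCCA, on either strand, was held by 8 members (22.9%), namely Wdr35, Ift27, Ift88, Ttc26, Traf3ip1, Dync2h1, Bbs1 and Lztfl1, against 5.02% of genes. The related form GTTGCTA was held by 5 members (14.3%), against 4.28% of genes. The single and paired forms can overlap. In the 4 stretches of 60 bases that follow, 5′ to 3′ on the strand of the gene, capitals mark the paired form in Ttc26 and Bbs7 and the single form in Traf3ip1 and Lztfl1. For Lztfl1 they mark the first of 3 sites in the window, and a second, on the other strand, follows it in lower case. Together these 2 sites read GTTGCC and GGCAAC with a spacer of 3 bases, which the paired form as searched here does not count.
Ttc26, chr6:38381468-38381527, plus strand: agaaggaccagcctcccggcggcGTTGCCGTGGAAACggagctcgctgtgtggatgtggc
Bbs7, chr3:36613474-36613533, minus strand: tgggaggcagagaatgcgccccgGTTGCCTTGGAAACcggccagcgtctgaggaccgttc
Traf3ip1, chr1:91494562-91494621, plus strand: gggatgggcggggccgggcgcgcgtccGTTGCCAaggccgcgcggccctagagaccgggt
Lztfl1, chr9:123717757-123717816, minus strand: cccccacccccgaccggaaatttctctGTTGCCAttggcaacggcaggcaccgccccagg
Relative to the gene start the paired form begins at −33 in Ttc26 and at −121 in Bbs7. A match is a description of these letters, not a bound site.

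The libraries differed in the levels of cell-type markers before any genotype comparison. Normalized counts summed to between 27500000 and 36200000 per library, and the depth estimated from the worth of 1 read was between 27600000 and 51500000 reads. In Arl13b-/- 2 the summed counts of 23 cell cycle genes were 3705 and in wild-type 1 they were 32266, whereas the other 4 libraries had between 131362 and 153752. For 15 postmitotic neuron genes the sum was 880088 in Arl13b-/- 2 and 385435 in wild-type 1, against 186681 to 199085 in the other 4. For 14 radial glia genes it was 5631 in Arl13b-/- 2 and 61290 in wild-type 1, against 126400 to 160102. For a list of 10 telencephalon genes the sum was 26075, 35291 and 14191 in Arl13b-/- 1 to 3, against 35603, 31872 and 40682 in wild-type 1 to 3, so Arl13b-/- 3 was the lowest. Every comparison below is therefore of libraries as labelled, and it is given for all 6 and for Arl13b-/- 1 and 3 against wild-type 2 and 3, which are called the 4 coherent libraries. In those 4, Y-linked Ddx3y had 0 and 1.23 normalized counts in the Arl13b-/- libraries, against 1093 and 1258 in the wild-type libraries. Sex and genotype thus cannot be told apart there. Ddx3y had 0 in Arl13b-/- 2 and 0.537 in wild-type 1. Over all 6 libraries, its high counts were thus in wild-type alone, so sex was not balanced between genotypes there either. In GENCODE M21, 9 of the 39 members share exonic sequence with another gene (Ift88, Ift57, Cluap1, Kif17, Bbs4, Bbs12, Mkks, Arl6 and Lztfl1), and their values are uncertain. Cluap1, Kif17, Bbs12 and Mkks share it with a gene on the same strand, which no strand setting of the counting would separate. For overlaps on opposite strands that setting matters, and it is not given in the sources used here.

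No transport gene passed the test between genotypes over all 6 libraries. In limma, 0 of 39 passed an adjusted p of 0.05 (the smallest was 0.990) and 0 had an unadjusted p under 0.05, where 0% and 1.14% of the 14249 genes tested did. The differences, Arl13b-/- minus wild-type, lay between −0.58 for Dync2h1 and 0.49 for Kif17 on the variance-stabilised log2 scale. Of the members, 20 lay above 0 and 19 below, with a median of 0.03, beside a median of 0.00 over all genes. Standard errors were large, between 0.16 and 0.83. The groups did not overlap for 4 members, all higher in Arl13b-/-, beside 8.26% of all genes (4.67% higher and 3.59% lower). These were Ift122, Ift22, Bbs1 and Mkks, each with an exact two-sided permutation p of 0.1, the smallest that 3 against 3 libraries can give. Without Arl13b-/- 3 the differences ran from −1.03 (Dync2h1) to 0.94 (Kif17), and without Arl13b-/- 2 from −0.38 (Kifap3) to 0.46 (Ift80) with a median of 0.12. None passed in either case, and the sign changed without that library for 14 of the 22 members given in full below.

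**Figure D1:**
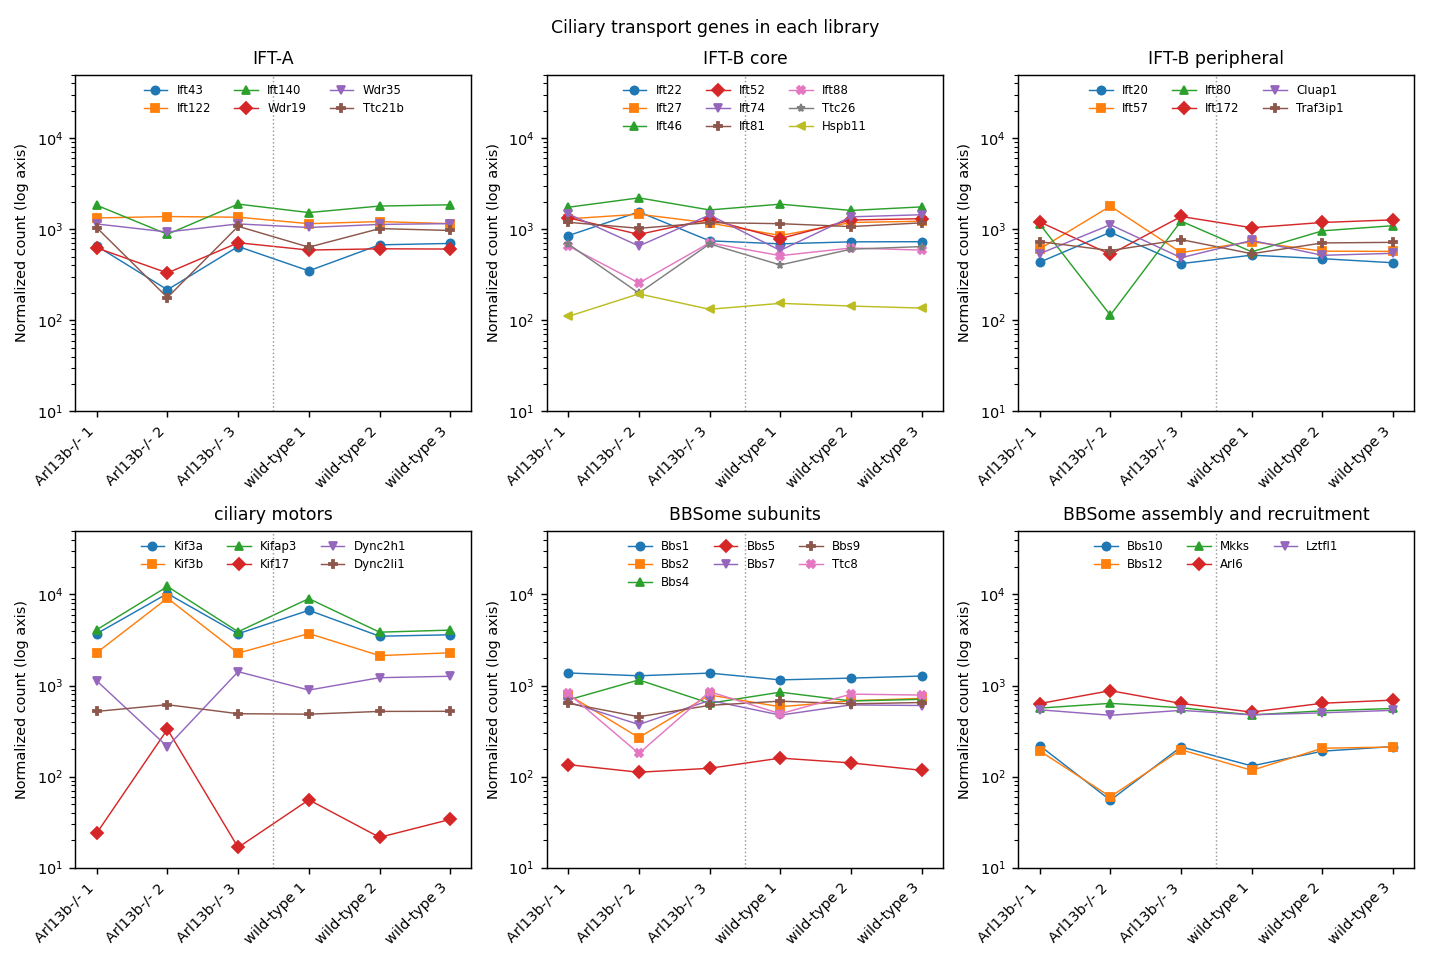
Normalized count (vertical log axis) of each of the 39 genes in each library, by subcomplex, with the Arl13b-/- libraries left of the dotted line and the wild-type libraries right of it; lines only join the values of a gene. Most lines are level except at Arl13b-/- 2 and, less far, wild-type 1, where Kif3a, Kif3b and Kifap3 are high and Ift80, Ttc21b and Ttc8 are low.

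In the 4 coherent libraries the transport genes stood close to each other between genotypes. All 39 differences were within 0.25 log2 units of 0, as were those of 86.8% of all genes, and the range was −0.17 (Kif17) to 0.20 (Ift80). None passed (limma, smallest adjusted p 0.275, where 0.253% of all genes passed, 0.0702% higher and 0.182% lower), and 2, Ift122 and Bbs1, had an unadjusted p under 0.05, beside 14.4% of all genes. The 95% interval of the difference lay inside ±0.5 for 38 of the 39, beside 11937 of all 14249 genes. The exception was Kif17 (−0.52 to 0.19). The highest upper bound was 0.40, for Ift80. Members above 0 numbered 29 and members below 0 numbered 10, with a median of 0.04 beside 0.02 over all genes. Of all 14249 genes, 8384 lay above 0 and 5865 below. With centred libraries or quantile normalization the members numbered 25 above 0 and 14 below. The groups did not overlap for 19 members, 15 of them higher and 4 lower in Arl13b-/-, beside 47.5% of all genes (29.3% higher and 18.1% lower). Without Arl13b-/- 3, the library with the lowest sum of telencephalon genes, they ran from −0.23 (Hspb11) to 0.20 (Ift22) and 0 passed. Summed counts of 12 surface ectoderm genes were 859 and 312 in Arl13b-/- 1 and 3, against 4501 and 1990 in wild-type 2 and 3, and those of 11 mesenchyme genes were 28546 and 33955, against 73319 and 36442. Summed counts of 9 red blood cell genes were 107721 and 298311 in Arl13b-/- 1 and 3, against 59109 and 76362 in wild-type 2 and 3. Of 7 choroid plexus genes, Ttr (−2.50) and Clic6 (−1.27) were lower in Arl13b-/- past the threshold (limma, adjusted p = 0.0323 and 0.0354). That list was split, with 4 genes below 0 and 3 above, up to 0.40. The part of these cell types in the differences was not tested.

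**Figure D2:**
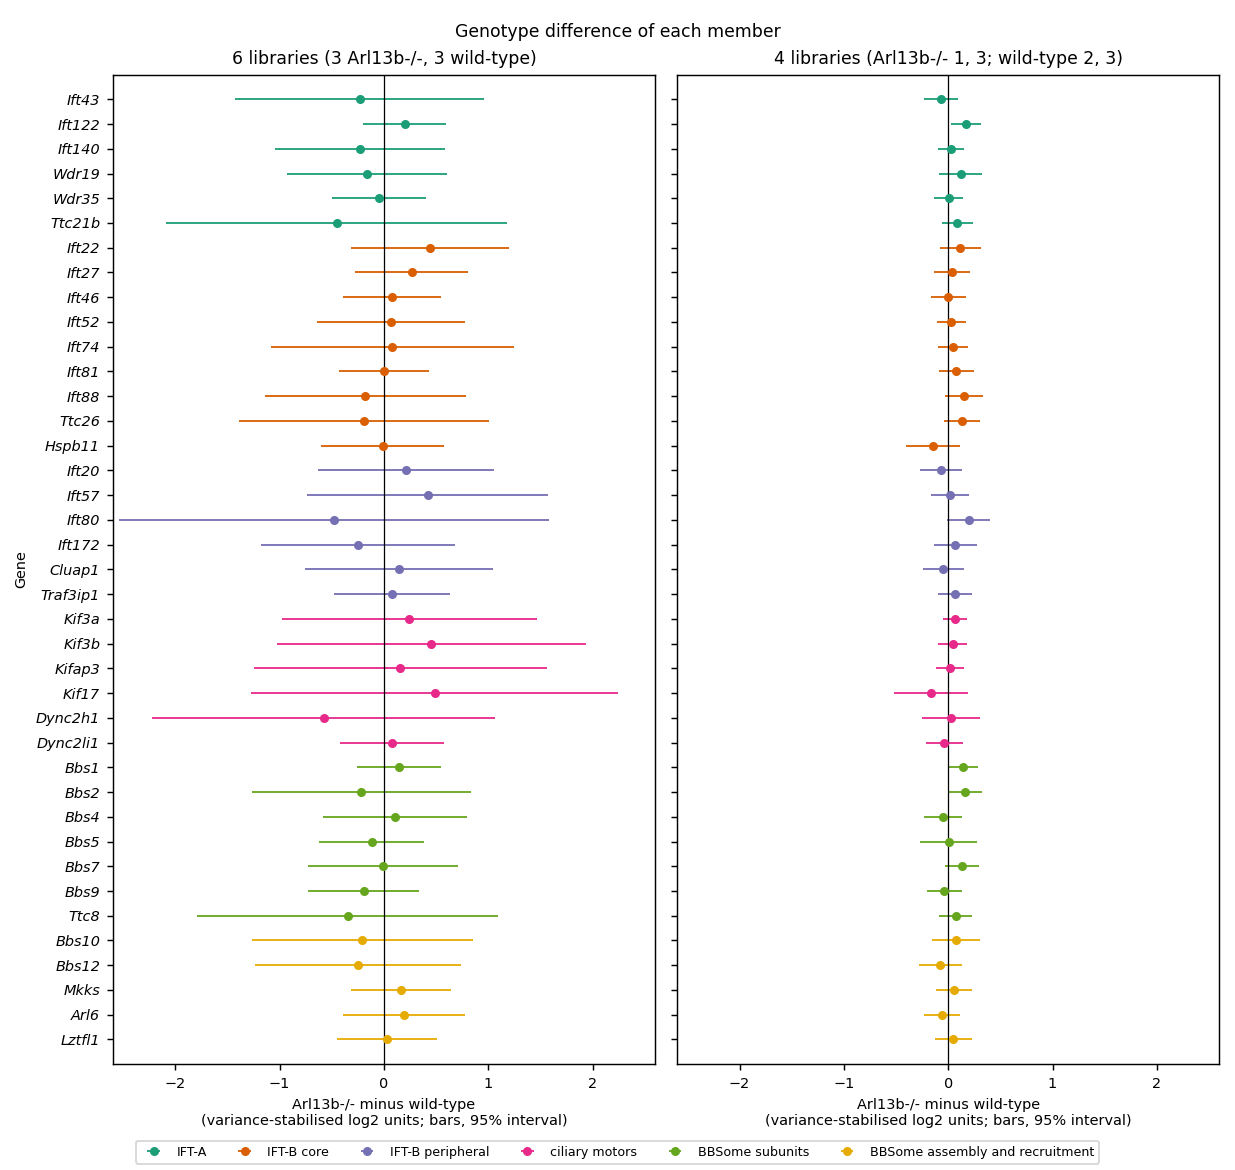
Difference of each member, Arl13b-/- minus wild-type, in variance-stabilised log2 units, with 95% intervals from limma, for all 6 libraries (left) and the 4 coherent libraries (right); colours mark subcomplexes. Every interval spans 0 at left, and at right the points lie between −0.17 and 0.20 with only the intervals of Ift122 and, barely, Bbs1 above 0.

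The IFT-A genes encode the complex that works with dynein-2 and also brings membrane cargo into the cilium. Their median difference was −0.20 over 6 libraries, 0.16 without Arl13b-/- 2 and 0.06 in the 4 coherent libraries, with 0 of 6 past the threshold in either. Ift122, a core IFT-A subunit, had 1330, 1379 and 1356 normalized counts in Arl13b-/- 1 to 3, against 1152, 1215 and 1151 in wild-type 1 to 3. All 3 Arl13b-/- libraries were above all 3 wild-type libraries, and the 2 libraries of unusual marker levels stood close to the others of their genotype. The difference was 0.17 ± 0.057 (SE, n = 2 each) in the 4 coherent libraries, a ratio of 1.14, and it did not pass (limma, adjusted p = 0.275). Over all 6 it was 0.20 ± 0.16 (limma, adjusted p = 0.990). Ift140, another core subunit, had 1834, 881 and 1889 in Arl13b-/- 1 to 3, against 1525, 1798 and 1857 in wild-type. Wdr19, a further core subunit gene, had 625, 331 and 711 in Arl13b-/- and 591, 610 and 606 in wild-type. For both, Arl13b-/- 2 alone lay below every wild-type library. The remaining subunit genes Ift43, Wdr35 and Ttc21b differed by −0.07, 0.00 and 0.09 in the 4 coherent libraries.

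IFT-B core genes encode the stable part of the anterograde train. Their median difference was 0.07 over 6 libraries and 0.05 over 4, and 0 of 9 passed. Ift88, the gene disrupted in the classical mouse model of IFT loss, had 657, 257 and 709 normalized counts in Arl13b-/- 1 to 3, against 513, 623 and 590 in wild-type 1 to 3. The groups overlapped through Arl13b-/- 2, and without the libraries of unusual marker levels the difference was 0.15 ± 0.073 (SE, n = 2 each; limma, adjusted p = 0.417). Ttc26, which has the paired X-box letters shown above, had 690, 199 and 691 in Arl13b-/-, against 406, 604 and 645 in wild-type, with a difference of 0.13 ± 0.068 in the 4 coherent libraries (limma, adjusted p = 0.453). Ift22, a small GTPase of the complex, had 849, 1552 and 746 in Arl13b-/-, against 691, 727 and 730 in wild-type. Its groups did not overlap, and Arl13b-/- 2 stood well above the rest; the difference was 0.44 ± 0.31 over 6 libraries and 0.12 ± 0.079 over 4. Ift27, the GTPase subunit that links IFT to BBSome exit, had 1300, 1463 and 1172 in Arl13b-/-, against 854, 1186 and 1225 in wild-type, and the groups overlapped. The other 5, Ift46, Ift52, Ift74, Ift81 and Hspb11, differed by between −0.15 (Hspb11) and 0.08 (Ift81) in the 4 coherent libraries.

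Peripheral IFT-B genes encode the part of the train that faces the motor and the membrane. The median difference was 0.11 over 6 libraries and 0.04 over 4, with 0 of 6 past the threshold. Ift80 had 1143, 114 and 1228 normalized counts in Arl13b-/- 1 to 3, against 565, 961 and 1095 in wild-type 1 to 3. Arl13b-/- 1 and 3 were above every wild-type library, and Arl13b-/- 2 was below all of them. In the 4 coherent libraries the difference of 0.20 ± 0.081 (SE, n = 2 each) was the largest of the 39 and did not pass (limma, adjusted p = 0.362). Ift57 had 607, 1793 and 554 in Arl13b-/-, against 730, 575 and 572 in wild-type, the opposite placing of Arl13b-/- 2. Ift172, a large subunit, had 1205, 530 and 1382 in Arl13b-/-, against 1039, 1187 and 1269 in wild-type, and Traf3ip1, a tubulin-binding subunit, had 731, 583 and 771, against 539, 708 and 718. In the 4 coherent libraries these 3 differed by 0.02 ± 0.074, 0.07 ± 0.082 and 0.07 ± 0.065. Ift20, which also works at the Golgi, and Cluap1 differed by −0.07 and −0.05.

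Among the motors, Kif3a and Kif3b encode the motor subunits of heterotrimeric kinesin-2, which also carries cargo in axons, and Kifap3 encodes its accessory subunit. Kif3a had 3713, 10232 and 3708 normalized counts in Arl13b-/- 1 to 3, against 6706, 3482 and 3610 in wild-type 1 to 3. Kif3b had 2293, 9113 and 2271 in Arl13b-/-, against 3726, 2132 and 2291 in wild-type. In both genes the high libraries were Arl13b-/- 2 and wild-type 1. The difference in the 4 coherent libraries was 0.06 ± 0.046 (SE, n = 2 each) for Kif3a and 0.04 ± 0.055 for Kif3b (limma, adjusted p = 0.580 and 0.758). Kif17, a homodimeric kinesin-2 of cilia and dendrites, was low, with 23.9, 331 and 16.7 in Arl13b-/- and 55.6, 21.5 and 33.9 in wild-type. Its exons overlap those of Sh2d5 on the same strand in GENCODE M21, so reads could have been split between them. Dync2h1, the heavy chain of dynein-2, had 1127, 213 and 1421 in Arl13b-/-, against 892, 1220 and 1265 in wild-type, and differed by −0.58 ± 0.67 over 6 libraries and 0.03 ± 0.11 over 4. Kifap3 and Dync2li1, a light intermediate chain of dynein-2, differed by 0.01 and −0.04 in the 4 coherent libraries. The motor median was 0.20 over 6 libraries, −0.22 without Arl13b-/- 2 and 0.02 over 4.

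BBSome subunit genes had a median difference of −0.12 over 6 libraries, 0.17 without Arl13b-/- 2 and 0.07 over 4, with 0 of 7 past the threshold. Bbs1 had 1375, 1280 and 1370 normalized counts in Arl13b-/- 1 to 3, against 1154, 1207 and 1272 in wild-type 1 to 3. All Arl13b-/- values lay above all wild-type values, and the nearest pair was 1280 in Arl13b-/- 2 and 1272 in wild-type 3. The difference was 0.14 ± 0.056 (SE, n = 2 each) in the 4 coherent libraries (limma, adjusted p = 0.347) and 0.14 ± 0.16 (n = 3 each; adjusted p = 0.990) over 6. Bbs2 had 793, 269 and 788 in Arl13b-/-, against 585, 681 and 723 in wild-type, and differed by 0.16 ± 0.065 in the 4 coherent libraries (limma, adjusted p = 0.357). Bbs4, whose exons overlap Adpgk on the opposite strand, had 695, 1153 and 639 in Arl13b-/-, against 846, 677 and 707 in wild-type, a difference of −0.05 ± 0.072 over 4 libraries. Bbs9 had 639, 454 and 606 in Arl13b-/-, against 674, 630 and 651 in wild-type. Every wild-type value of Bbs9 but 1 exceeded all Arl13b-/- values, and the difference was −0.19 ± 0.21 over 6 libraries and −0.04 ± 0.068 over 4. Bbs5, Bbs7 and Ttc8 differed by 0.00, 0.13 and 0.07 in the 4 coherent libraries.

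The genes of BBSome assembly and recruitment had medians of 0.03 over 6 libraries and 0.05 over 4, with 0 of 5 past the threshold. Arl6, the GTPase that recruits the BBSome to membranes, had 634, 879 and 636 normalized counts in Arl13b-/- 1 to 3, against 511, 639 and 692 in wild-type 1 to 3. The groups overlapped, and the difference was 0.20 ± 0.24 over 6 libraries and −0.06 ± 0.070 (SE, n = 2 each) over 4 (limma, adjusted p = 0.990 and 0.741). Mkks, a chaperonin-like protein of BBSome assembly, had 565, 638 and 571 in Arl13b-/-, against 476, 528 and 560 in wild-type, which did not overlap. It differed by 0.16 ± 0.20 and 0.06 ± 0.069, and its exons overlap other genes on both strands. Bbs12, another chaperonin-like gene, had 192, 60.1 and 197 in Arl13b-/-, against 117, 205 and 211 in wild-type. Bbs10 and Lztfl1, a regulator of BBSome traffic, differed by 0.07 and 0.05 in the 4 coherent libraries.

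The widest differences among members lay between libraries of 1 genotype. In Arl13b-/- 2, relative to the mean of Arl13b-/- 1 and 3, 13 members were lower by at least 1 log2 unit (33.3%, beside 25.6% of all genes) and 7 were higher by at least 1 (17.9%, beside 21%). In either direction 46.7% of all genes were that far away. These shares are near those of all genes, and a single library allows no test. The differences ran from −2.82 for Ift80 to 2.44 for Kif17, with members of 1 complex on both sides of 0. Ift80 had 0.0961 times the mean count of Arl13b-/- 1 and 3, Dync2h1 0.167 times, Ttc21b 0.168 times and Ttc8, a BBSome subunit, 0.214 times. In the same library Kif3a had 2.76, Kifap3 3.06, Ift57 3.09 and Kif3b 3.99 times that mean. Among BBSome subunits the ratio ran from 0.214 for Ttc8 to 1.73 for Bbs4. Transcripts whose products share a complex thus stood on both sides of the other Arl13b-/- libraries.

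Wild-type 1 departed from wild-type 2 and 3 less far. Kifap3 had 2.27, Kif3a 1.89 and Kif3b 1.68 times the mean count of wild-type 2 and 3. Ift74 had 0.416, Ift43 0.509 and Ift80 0.550 times that mean. Only Kifap3 was higher by at least 1 log2 unit, beside 12.2% of all genes, and only Ift74 lower by that much, beside 6.55% (18.7% either way). The departures within Arl13b-/- and within wild-type share no library. Genes are no independent replicates; across the 39 members the Pearson correlation of these departures was 0.80 and Spearman's rho 0.82, and 30 of 39 (76.9%) had the same sign, while over all 14249 genes the values were 0.71, 0.70 and 75.1%. The exceptions in sign were 9 members, among them Ift22 and Arl6, which were high in Arl13b-/- 2 and low in wild-type 1.

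**Figure D3:**
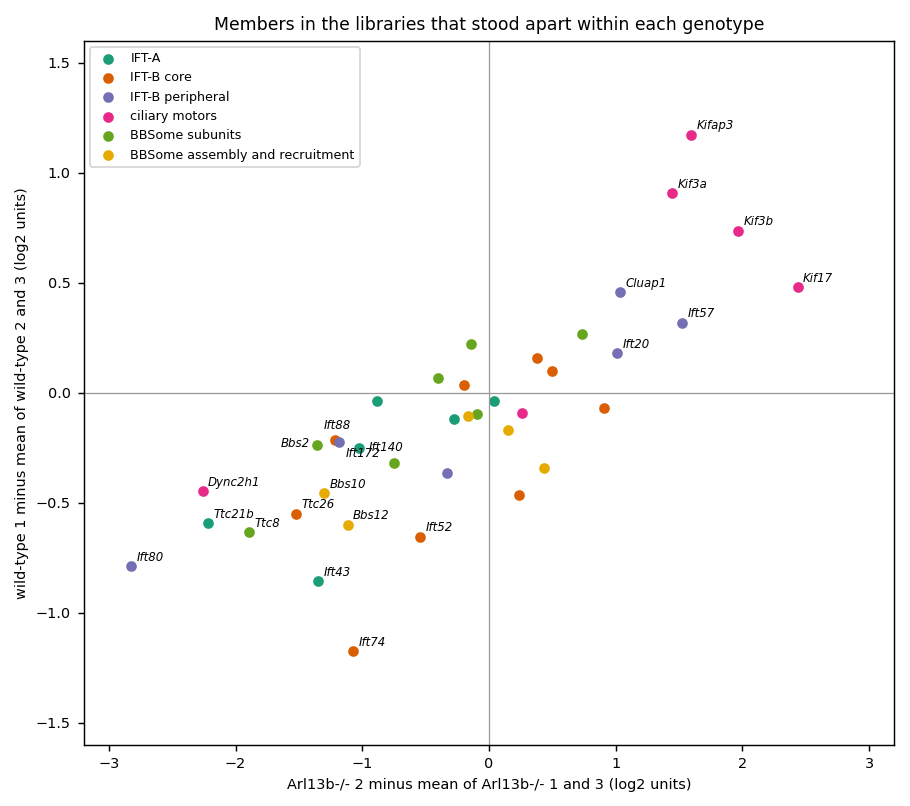
Each point is a member. The horizontal axis is its value in Arl13b-/- 2 minus the mean of Arl13b-/- 1 and 3, and the vertical axis its value in wild-type 1 minus the mean of wild-type 2 and 3, in variance-stabilised log2 units; Kif3a, Kif3b, Kifap3 and Kif17 lie at upper right and Ift80, Ttc21b, Ttc8 and Dync2h1 at lower left.

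By subcomplex, the mean level of the motor genes was 11.04 in Arl13b-/- 2, against 10.14 and 10.13 in Arl13b-/- 1 and 3, and 10.60 in wild-type 1, against 10.10 and 10.19 in wild-type 2 and 3. IFT-A had a mean of 9.18 in Arl13b-/- 2, against 10.11 and 10.15, and 9.76 in wild-type 1, against 10.07 in each of the others. BBSome subunits had 8.89, against 9.46 and 9.44, and 9.28, against 9.39 in each. The summed neuron markers were high and the summed cell cycle and radial glia markers low in the same libraries, as given above. The radial glia list was split in wild-type 1. There 10 of its 14 genes were below the mean of wild-type 2 and 3 and 4 were above, 2 of these by at least 1 log2 unit. In Arl13b-/- 2 the sums for mesenchyme (664), endothelium (607) and red blood cells (171) were also low, against 28085 to 73319, 5894 to 8182 and 28147 to 298311 in the other 5 libraries. In wild-type 1 the choroid plexus sum was 28728, against 4548 and 5096 in wild-type 2 and 3, and the surface ectoderm sum was 15767, against 4501 and 1990. Ttr alone gave 25702 of that choroid plexus sum. Of the 7 choroid plexus genes, 6 were above the mean of wild-type 2 and 3 and 1 was below it. Embryonic globin Hbb-y had 397 normalized counts in wild-type 1, against 33298 and 44055 in wild-type 2 and 3, and adult globin Hbb-bs had 16706, against 725 and 978. The part of all these in the members' levels was not tested. In bulk tissue, fewer cells of a type and less RNA per cell cannot be told apart. Hbb-y and Hbb-bs went opposite ways in wild-type 1. The age of each library is known from its label alone and was not tested. Tubb3, a neuronal tubulin, had 190583 normalized counts in Arl13b-/- 2 and 73448 in wild-type 1, against 52546 to 56153 in the other 4, and Top2a, a topoisomerase of dividing cells, had 52.4 and 3873, against 16248 to 20488.

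**Figure D4:**
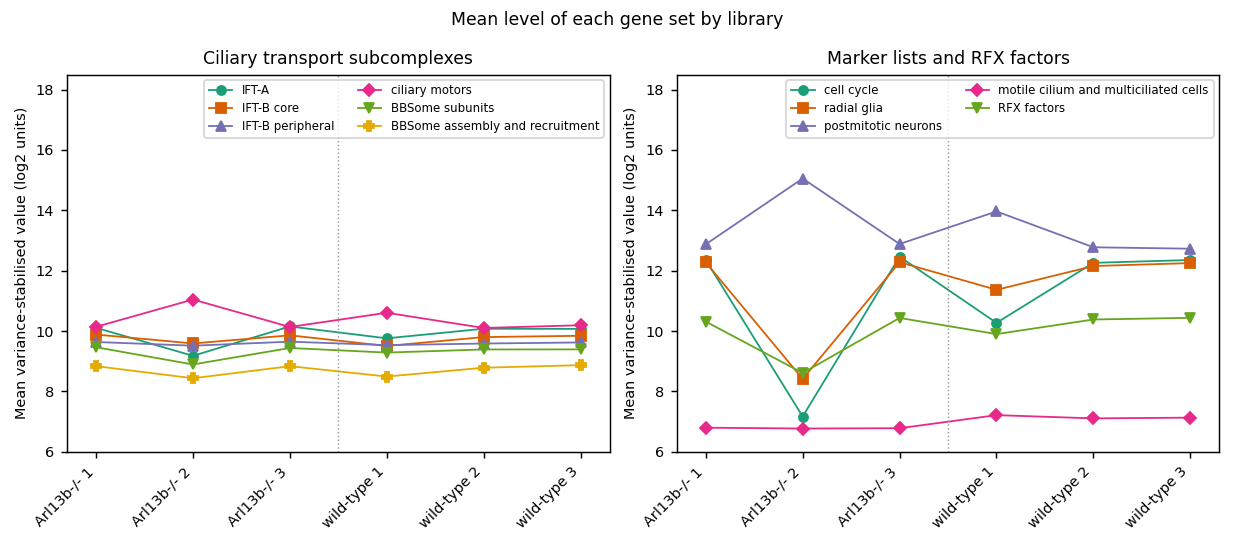
Mean variance-stabilised value (log2 units) in each library of the 6 subcomplexes (left) and of marker lists and RFX factors (right), with the Arl13b-/- libraries left of the dotted line and wild-type right of it; lines only join the values of a set. The motors peak and IFT-A dips at Arl13b-/- 2 and wild-type 1, where neuron markers peak and cell cycle markers dip.

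Other genes of ciliary transport, from a list of 25 tested, also gave no call between genotypes. In limma 0 of 25 passed over 6 libraries or over the 4 coherent libraries, with an unadjusted p under 0.05 for 0 and 2. In the 4 coherent libraries the smallest p belonged to Tctex1d2, a light chain of dynein-2 (0.32 ± 0.096, SE, adjusted p = 0.242), Wdr60, an intermediate chain of dynein-2 (−0.22 ± 0.071, adjusted p = 0.271), and Lca5, an IFT-binding protein (0.15 ± 0.076, adjusted p = 0.450). Tctex1d2 had 250, 471 and 254 normalized counts in Arl13b-/- 1 to 3, against 270, 175 and 204 in wild-type 1 to 3. Wdr60 had 421, 186 and 415 in Arl13b-/-, against 338, 488 and 506 in wild-type. For both genes the groups overlapped only through wild-type 1. Kif3c, the partner of KIF3A in a neuronal kinesin-2, had 5002, 18075 and 4826 in Arl13b-/-, against 9775, 4986 and 5145 in wild-type, which is the placing of the other kinesin-2 genes.

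Of the RFX factor genes, 0 of 6 passed in either comparison. Rfx3, a factor of ciliary genes in the mouse, had 2751, 1569 and 3093 normalized counts in Arl13b-/- 1 to 3, against 2610, 2695 and 2990 in wild-type 1 to 3. Rfx4, a factor of the neural tube, had 2010, 22.7 and 2727 in Arl13b-/-, against 564, 2321 and 2049 in wild-type. It was low where the sum of radial glia markers was low.

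Motile cilia of multiciliated cells also depend on IFT. The summed counts of 18 genes of motile cilia and multiciliated cells, 15 of which were tested, were 1911 to 2266 in Arl13b-/- and 2764 to 2916 in wild-type. Rsph9 alone gave 907 of the sum in Arl13b-/- 2, against 132 and 128 in Arl13b-/- 1 and 3. Of the 15, 13 differed below 0 and 2 above over 6 libraries, and 12 below and 3 above in the 4 coherent libraries. Ccdc153 and Tmem212 were listed at 0 in the 4 coherent libraries. In those 4, Ccno, a regulator of centriole production, fell by 1.49 ± 0.14 (SE, n = 2 each; limma, adjusted p = 0.0437), the only gene of the list past the threshold. Its normalized counts were 34.1, 19.7 and 18.4 in Arl13b-/- 1 to 3, against 40.0, 154 and 168 in wild-type 1 to 3, so wild-type 1 lay near the Arl13b-/- libraries. Foxj1, the master factor of motile cilia, had 557, 161 and 445 in Arl13b-/-, against 729, 772 and 740 in wild-type (adjusted p = 0.137 in the 4 coherent libraries). The part of these cells in the levels of the members was not tested.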

How the data were processed

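The authors deposited log2 values per gene symbol for 6 libraries, made with the variance-stabilising transformation. The mm9 build, Salmon 0.9.1, DESeq 1.16.1, DESeq2, CASAVA and STAR 2.6.0 are named, per the submitters' processing notes, and the role of each is not given in the sources used here. Normalized counts were recovered from the log2 values by inverting the transformation. Only 54.8% to 81.9% of values under 30 reads lay within 0.05 of whole reads, which was too few for a test on counts. Genes with a mean at least 1 above the lowest deposited value of 5.13 were tested (14249 of 24444) with limma 3.58.1 in R 4.3.3, with an intensity trend and Benjamini-Hochberg adjustment over all of them. The depth and the number of libraries limit the precision, and the intervals given come from the spread between libraries. All library values are given for 22 of the 39 members: in each subcomplex the 2 with the smallest p in either comparison, and Ift88, Kif3a, Bbs4 and Arl6. The other members, and Kif3c, Rfx4, Ccno, Rsph9, Ccdc153, Tmem212, Clic6, Ttr, Hbb-y and Hbb-bs, were named after their values were seen. The members, the lists and the 4-library comparison were chosen with earlier results of these data known. Promoter sequences are RefSeq's, on GRCm38.p6, and exon overlaps are from GENCODE M21. The values of some genes are not reported here. Alternatives were another filter, scaling, moderation, library weights, recovered counts and leaving out each library.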

Additional observations from a re-analysis of the deposited data

How the results depend on the processing

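Under every alternative tried, in both comparisons, 0 of the members tested passed the threshold (38 were tested with the stricter filter). Signs over 6 libraries depended on Arl13b-/- 2. With each library left out in turn, differences ran from −0.41 to 0.11 for Ift140, −0.35 to 0.13 for Wdr19, −0.41 to 0.23 for Ift88, −0.45 to 0.31 for Ttc26, −0.090 to 0.70 for Ift57, −0.98 to 0.46 for Ift80, −0.50 to 0.14 for Ift172 and −0.043 to 0.19 for Traf3ip1. They ran from −0.24 to 0.55 for Kif3a, −0.20 to 0.79 for Kif3b, −0.33 to 0.94 for Kif17, −1.03 to 0.18 for Dync2h1, −0.44 to 0.24 for Bbs2, −0.14 to 0.26 for Bbs4 and −0.45 to 0.12 for Bbs12. The medians ran from −0.38 to 0.16 for IFT-A, −0.037 to 0.19 for the IFT-B core, −0.0078 to 0.11 for BBSome assembly, 0.027 to 0.18 for peripheral IFT-B, −0.22 to 0.55 for motors and −0.16 to 0.17 for BBSome subunits, and genes passing from 0 to 4 (4 without wild-type 1). Each difference just listed, and the median of IFT-A, of motors and of BBSome subunits, changed sign without Arl13b-/- 2, except Traf3ip1, which did so without wild-type 1. The IFT-B core median did so without Arl13b-/- 1 or 3, and that of BBSome assembly without Arl13b-/- 1 or wild-type 1. In the 4 coherent libraries, where leaving 1 out leaves a lone library assumed to vary like the others, differences ran from −0.039 to 0.10 for Ift27, −0.043 to 0.075 for Ift57, −0.025 to 0.16 for Ift172, −0.0056 to 0.10 for Kif3b, −0.13 to 0.18 for Dync2h1 and −0.10 to 0.0053 for Bbs4. The medians ran from 0.020 to 0.078 for IFT-A, 0.010 to 0.084 for the IFT-B core, 0.021 to 0.045 for peripheral IFT-B and 0.049 to 0.10 for BBSome subunits. The genes passing, 36 with all 4, were 725 without Arl13b-/- 1, 78 without Arl13b-/- 3, 6 without wild-type 2 and 17 without wild-type 3. They were 59 under quantile normalization, 98 with robust moderation and 7 with no trend. Quantile normalization also gave −0.00055 for Ift140 and a median of 0.018 for the IFT-B core, and over 6 libraries 0.051 for Bbs12 and medians of −0.057 for IFT-A, 0.10 for motors, 0.099 for BBSome subunits and 0.12 for BBSome assembly. Centred libraries gave a median of 0.055 for BBSome subunits. The estimation of library weights over 6 libraries stopped before its tolerance. The weights were 4.93e-05, 0.302 and 20.8 for Arl13b-/- 1 to 3, and 1.18, 95.3 and 28.7 for wild-type 1 to 3. These weights made the fit nearly that of Arl13b-/- 3 alone against wild-type 2 and 3. They passed 214 genes and gave 0.046 for Ift140, 0.19 for Wdr19, −0.018 for Ift27, 0.17 for Ift88, 0.14 for Ttc26, −0.026 for Ift57, 0.26 for Ift80, 0.17 for Ift172, −0.16 for Kif17, 0.17 for Dync2h1, 0.16 for Bbs2, −0.080 for Bbs4, −0.022 for Arl6 and medians of 0.056 for IFT-A, 0.040 for peripheral IFT-B, 0.049 for motors and 0.069 for BBSome subunits. The causes were not tested.

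With the replicate number as a block over 6 libraries, 0 genes and 0 members passed in limma (111 genes at an unadjusted p under 0.05, against 163 without the block). The deviations of same-numbered libraries correlated at −0.714, −0.707 and 0.623, and 0 of 6 correlated best with their own number. These values cannot show whether the numbers pair the libraries. The libraries of unusual marker levels stand apart from the others of their genotype and carry different numbers, which by itself shapes such correlations. The 4 coherent libraries share 1 number, so no such fit was made there.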
